A study of Rattus norvegicus with 24 samples.

Results

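The cytosolic ribosome is built from a large and a small subunit of ribosomal RNA and roughly equal amounts of many different proteins, most of them encoded by single genes. Here the array probes whose only gene symbol begins with Rpl or Rps and a number were taken, together with Rplp0, Rplp1, Rplp2 and Rpsa. Ribosomal S6 kinases of the Rps6ka, Rps6kb, Rps6kc and Rps6kl families were left out. That gave 74 genes of the 14324 genes with a probe of a single symbol, 45 of the large subunit and 27 of the small. The other 2 were taken by their symbols alone, Rps19bp1, which encodes a protein that binds Rps19, and the pseudogene Rpl17-ps16. The choice used symbols and no measured value. Each gene was followed on its probe of highest mean. All 74 genes passed the filter on low values described with the methods. Ribosomal protein genes without a probe of a single symbol were not analysed here.

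The arrays held RNA from thoracic propriospinal (TPS) neurons of female Long Evans rats of 77 ± 10 days, 1 animal to an array and 24 arrays in all. TPS neurons run within the spinal cord from thoracic to lumbosacral levels. They had been labelled in every group, controls included, by a retrograde fluorescent tracer (Fluorogold, in the study's methods) injected into the upper lumbosacral enlargement, and were cut out singly by laser. Transected animals had a complete T9 transection after the tracer had been carried to the cell bodies, and were taken 3 days (n = 4), 1 week (n = 4), 2 weeks (n = 2) or 1 month (n = 2) post-injury (p.i.). Animals with tracer and no injury served as 4-day, 2-week and 1-month controls (n = 4 each). These control names are those of the sample labels, and the study's own table counts the control times from the tracer injection. Neurons at 3 days and at 1 week p.i. were both set against the 4-day controls, so those comparisons share their control arrays. By the study's table the 3-day animals matched their controls in time since the tracer, while the 1-week animals were taken longer after it. For the 1-week group that time cannot be told apart from time p.i. A transected group contains labelled neurons that survived axotomy to that time. In such pooled RNA, fewer cells of a type and less RNA per cell cannot be told apart.

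Values are RMA intensities on a linear scale, whose array medians lay between 73.6 and 81.3, and differences are given as log2 of transected over control unless other groups are named. A gene is said to have risen or fallen where limma's moderated test across the 23240 tested probes gave a Benjamini-Hochberg adjusted p under 0.05, and every adjusted p below comes from that fit unless another is named. Of neuronal markers 16 genes were measured, with summed intensities of 28188 to 30938 at 3 days p.i. and of 28732 to 31465 in 4-day controls. At 3 days p.i. 4 of the 16 were higher and 12 lower (median -0.06), and Tubb3 rose and Rbfox3 fell. Of microglial markers 13 genes were measured, none of them at the lowest value of the files. All 13 were higher at 3 days p.i. and 10 passed the test, with summed intensities of 7266 to 9861 at 3 days p.i. against 2151 to 5780 in 4-day controls. At 1 week p.i. the microglial sum was 5028 to 6937. Of 9 astrocyte markers 2 were higher and 7 lower at 3 days p.i. (median -0.20), Kcnj10 and Slc6a11 fell, and the sums were 11671 to 14091 at 3 days p.i. against 10638 to 17065 in 4-day controls. Of 9 oligodendrocyte markers 5 were higher and 4 lower (median 0.0069), Cldn11 rose, and the sums were 10664 to 14413 against 9948 to 12812. The part of these other cells' RNA in the results below was not tested.

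Transcripts of ribosomal protein genes usually begin with a cytosine followed by a run of pyrimidines, the 5′ terminal oligopyrimidine (TOP) tract, through which the mTOR pathway controls how strongly they are translated. RefSeq start regions (build GRCr8) were matched for 62 of the 74 genes, 60 by gene ID and 2 by symbol. A C at the annotated start followed by at least 4 more bases that were all C or T, read on the strand of the gene, stood in 23 of the 62 regions (37.1%), against 2.63% of all 27457 regions. Within 10 bases on either side of the annotated start, such a run was found for 46 of the 62 (74.2%) and for 28.8% of all regions. Some genes of the results below are shown here with 10 bases before the annotated start and 20 from it, 5′ to 3′, and the run that begins at the start is in capitals. Their positions are Rplp0 at chr12:46718371-46718400 on the minus strand, Rplp1 at chr8:71290853-71290882 on the minus strand, Rps18 at chr20:4933735-4933764 on the plus strand, Rpl37a at chr9:81748081-81748110 on the plus strand, Rps2 at chr10:14251838-14251867 on the plus strand and Rpl13a at chr1:104748894-104748923 on the minus strand.
Rplp0: caccgcacttCTCTCgccaggcgtcctcat
Rplp1: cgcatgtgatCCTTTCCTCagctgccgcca
Rps18: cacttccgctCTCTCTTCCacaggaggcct
Rpl37a: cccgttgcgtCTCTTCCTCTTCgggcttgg
Rps2: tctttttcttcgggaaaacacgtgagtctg
Rpl13a: tcctttcctaggcggctgccgaagatggcg
The first 4 begin with a run, of 5 bases in Rplp0, 9 in Rplp1 and Rps18 and 12 in Rpl37a. In Rps2 and Rpl13a the annotated start itself holds none, and pyrimidine runs lie just before it. Rpl7a and Rpsa, which are not shown, had no such run at the start or within 10 bases of it. The 23 genes with a run at the start had a median difference at 3 days p.i. of 0.07 and 21 of them were higher than in controls, against a median of 0.06 and 31 higher of the 39 matched genes without one. The match is a description of the annotated sequence, since the start used in these neurons was not measured.

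At 3 days p.i. most ribosomal protein genes lay slightly above the 4-day controls, and only Rps2 and Rplp0 rose. Of the 74 genes, 60 were higher and 14 lower, with a median difference of 0.06, where 47.6% of all tested probes were higher and their median was -0.01. In the small subunit 25 of 27 were higher (median 0.06), and in the large subunit 33 of 45 (median 0.06). The sizes were small. For 55 genes the difference was under 0.1 in either direction and for 7 it reached 0.2, and the median half-width of the 95% confidence interval was 0.14. The test called 2 of the 74 genes, both higher and none lower, where it called 2.89% of all tested probes and 2% as higher. At an unadjusted p under 0.05 stood 9 of the 74 (12.2%) and 14.2% of all tested probes.

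**Figure D1:**
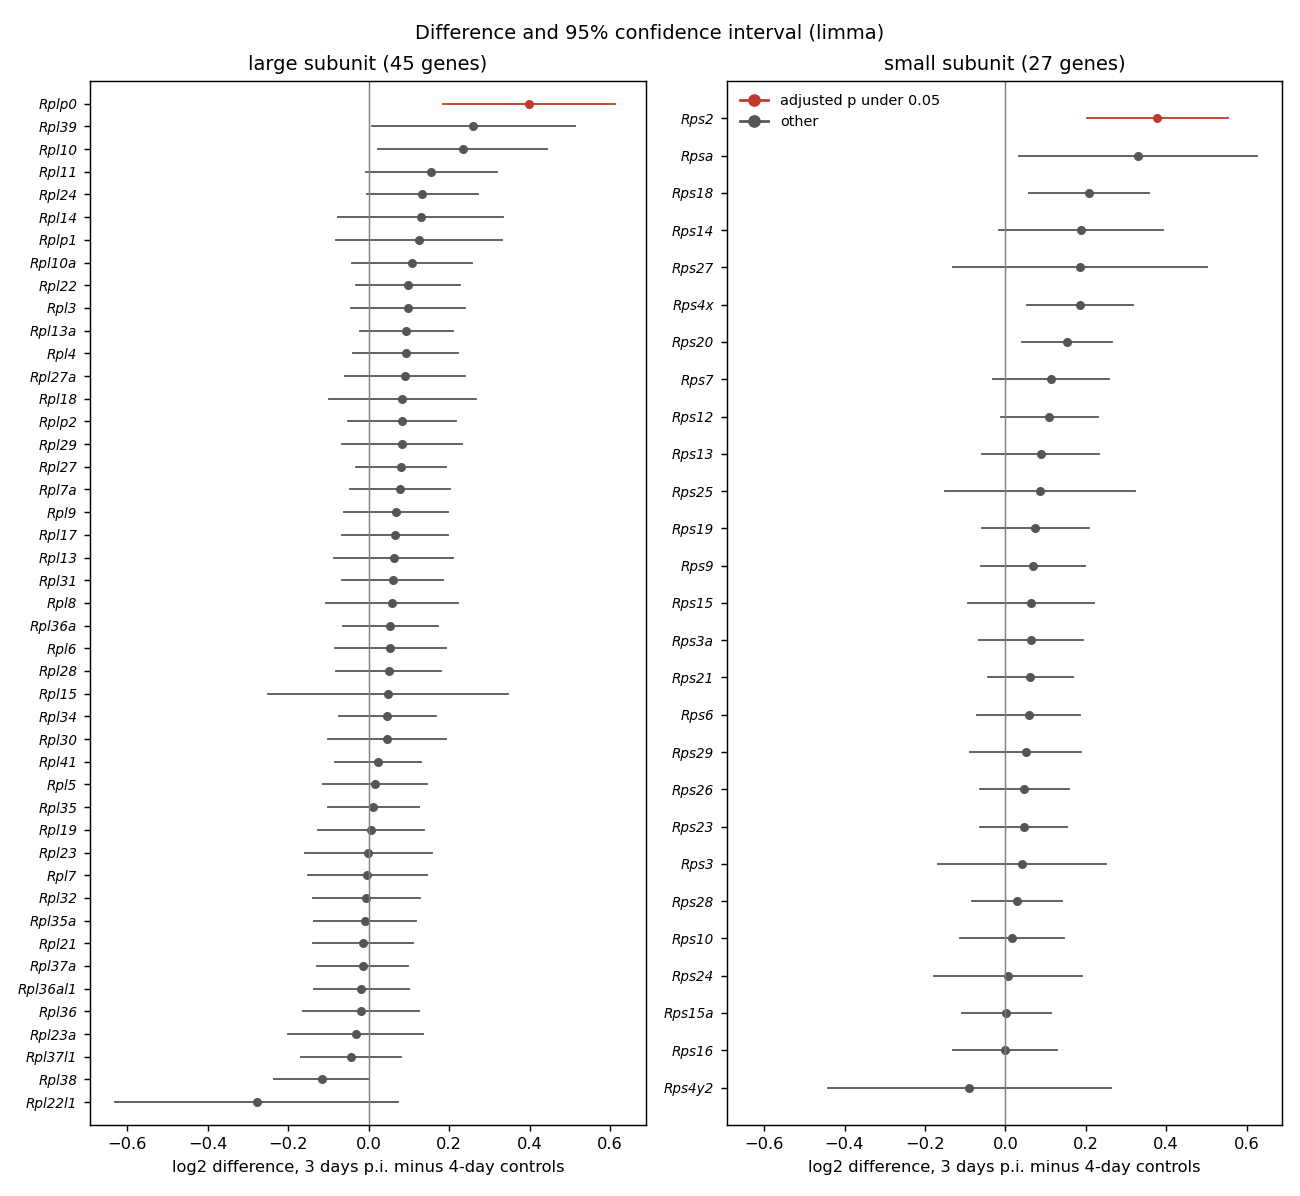
Log2 difference between 3 days p.i. and the 4-day controls (x axis) for the 45 large-subunit genes on the left and the 27 small-subunit genes on the right, each with its 95% confidence interval from limma. Points of Rplp0 and Rps2, with an adjusted p under 0.05, are red, and most other points lie a little right of 0 with intervals that include it.

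Rps2, a small-subunit protein near the entry of the mRNA channel, had intensities of 1685, 1521, 1542 and 1566 at 3 days p.i., against 1219, 1492, 1099 and 1087 in 4-day controls. Every array of 3 days p.i. lay above every control, although control 2 came close to the lowest of them. The difference was 0.38 ± 0.084 (SE), with an adjusted p of 0.0159. All 9 probes of Rps2 were higher, by 0.27 to 0.42, and 6 of them passed the test. Probes of the same gene were read on the same arrays, so here and below they are not independent. At 1 week p.i. Rps2 overlapped the controls, with 1266, 1072, 1188 and 1263, a difference of -0.02 ± 0.084 (adjusted p = 0.999). It had 1269.7 and 1145 at 2 weeks p.i., against 1028, 1103, 1060.4 and 1081 in 2-week controls, and 1191 and 1162 at 1 month p.i., against 1139, 1079.7, 1092 and 1129 in 1-month controls. Neither of these late differences, 0.18 and 0.08, passed the test.

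Rplp0 encodes the protein that anchors the lateral stalk of the large subunit, where elongation factors bind. It had 1517, 1306, 1166 and 1318 at 3 days p.i., against 928, 1206, 803 and 1122 in 4-day controls. The groups overlapped, since control 2 lay above replicate 3 of 3 days p.i. The difference was 0.40 ± 0.10 (adjusted p = 0.0362), and the second probe of the gene gave 0.43 and also passed the test. At 1 week p.i. the values were 1047, 1002, 937 and 1023, with a difference of -0.001 ± 0.10. The difference was 0.08 ± 0.13 at 2 weeks p.i. and -0.04 ± 0.13 at 1 month p.i.

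Both calls rested on the spread shared over all 7 groups. Fitted on the 8 arrays of 3 days p.i. and the 4-day controls alone, limma gave adjusted p = 0.294 for Rps2 and 0.379 for Rplp0, and that fit called 22 of all tested probes. Without replicate 1 of 3 days p.i. no ribosomal protein gene was called. Without replicate 2 or 4 of that group, or without 4-day control 1 or 3, only Rps2 was, and without 4-day control 4 only Rplp0. The median difference of the 74 genes was 0.04, with 54 of them higher, without 4-day control 1.

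The other partners of Rplp0 in the stalk, Rplp1 and Rplp2, were not called. Rplp1 had 2496, 2426, 2254 and 2883 at 3 days p.i., against 2226, 2586, 2005 and 2403 in 4-day controls, and the groups overlapped widely. Its difference was 0.13 ± 0.099 (95% confidence interval -0.08 to 0.33). Rplp2 had 2802, 2561, 2421 and 2725 at 3 days p.i., against 2466, 2649, 2284 and 2523, a difference of 0.08 ± 0.065. Rpsa, a small-subunit protein also known as the laminin receptor, had 1941, 1697, 1825 and 1580.3 at 3 days p.i., against 1400.1, 1891, 954 and 1508. Its controls ranged so widely that a difference of 0.33 ± 0.14 gave an adjusted p of 0.279.

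The next 3 genes by p all belonged to the small subunit and did not pass the test. Rps4x differed by 0.19 ± 0.063 (adjusted p = 0.137), Rps18 by 0.21 ± 0.072 (adjusted p = 0.141) and Rps20 by 0.15 ± 0.054 (adjusted p = 0.149). Rps20 had 5855, 6141, 5763 and 6079.9 at 3 days p.i., against 5222, 5494, 5124 and 5598 in 4-day controls, and was with Rps2 one of 2 genes whose 3-day arrays all lay above all controls, as did 2.75% of tested probes. Rpl38, which in the mouse is needed for the translation of certain Hox mRNAs, was the only one whose arrays all lay below, as did 2.76% of tested probes. It had 3375, 3327, 3497 and 3565 at 3 days p.i., against 3593, 3649, 3959 and 3735, a difference of -0.12 ± 0.056 (adjusted p = 0.35), and its 4 probes were all lower. The other gene with the smallest p among those lower was Rpl22l1, the paralog of Rpl22. It had 524, 532, 666 and 759 at 3 days p.i., against 686, 532, 804 and 1037, a difference of -0.28 ± 0.17 on 1 probe, while Rpl22 itself differed by 0.10 ± 0.062.

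Rps6, the substrate of S6 kinase below mTOR, had 4358, 4666, 4760.3 and 4400.0 at 3 days p.i., against 4282, 4922, 4007 and 4298 in 4-day controls, a difference of 0.06 ± 0.062. Rpl5 and Rpl11, which with the 5S RNA can bind Mdm2 and so hold back its action on p53, differed by 0.02 ± 0.062 and 0.16 ± 0.078. Rpl4, which lines the exit tunnel, differed by 0.09 ± 0.063. Rps4y2, a paralog of Rps4x, had 174, 117, 115 and 91 at 3 days p.i., against 129.7, 97, 139.7 and 154. None of these passed the test.

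Set against 1 week p.i. directly, 3 days p.i. showed the same pair. Of the 74 genes 57 were higher at 3 days and 17 lower (median 0.05), where 46.5% of tested probes were higher. Rps2 was higher by 0.40 ± 0.084 (adjusted p = 0.0132) and Rplp0 by 0.40 ± 0.10 (adjusted p = 0.0398). For both genes every array of 3 days p.i. lay above every array of 1 week p.i. These were the only 2 genes called, where 2.47% of all tested probes were called and 1.93% as higher. All arrays of 3 days p.i. lay above all of 1 week p.i. for 10 of the 74 genes, and for 3.72% of tested probes. The 10 were Rpl7a, Rpl10a, Rpl11, Rpl30, Rplp0, Rps2, Rps12, Rps20, Rps26 and Rpsa. This comparison uses no controls, and by the study's table the groups also differ in time since the tracer. Rps2 was called whichever single array was left out, with adjusted p up to 0.0486, while Rplp0 was not called in 14 of the 24 such fits (adjusted p up to 0.156). These left out replicate 1, 2 or 4 of 3 days p.i., any array of 1 week or 2 weeks p.i., 2-week control 1 or 4, or 1-month control 1, 3 or 4. Fitted on these 8 arrays alone, the adjusted p was 0.057 for Rps2 and 0.0942 for Rplp0. In the same comparison all 13 microglial markers were higher at 3 days and 5 of them rose, while 8 of 9 astrocyte markers (2 called) and 13 of 16 neuronal markers (1 called) were lower, and their part in it was not tested. The median of 0.05 for the 74 genes was 0.0116 after quantile normalization again.

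**Figure D2:**
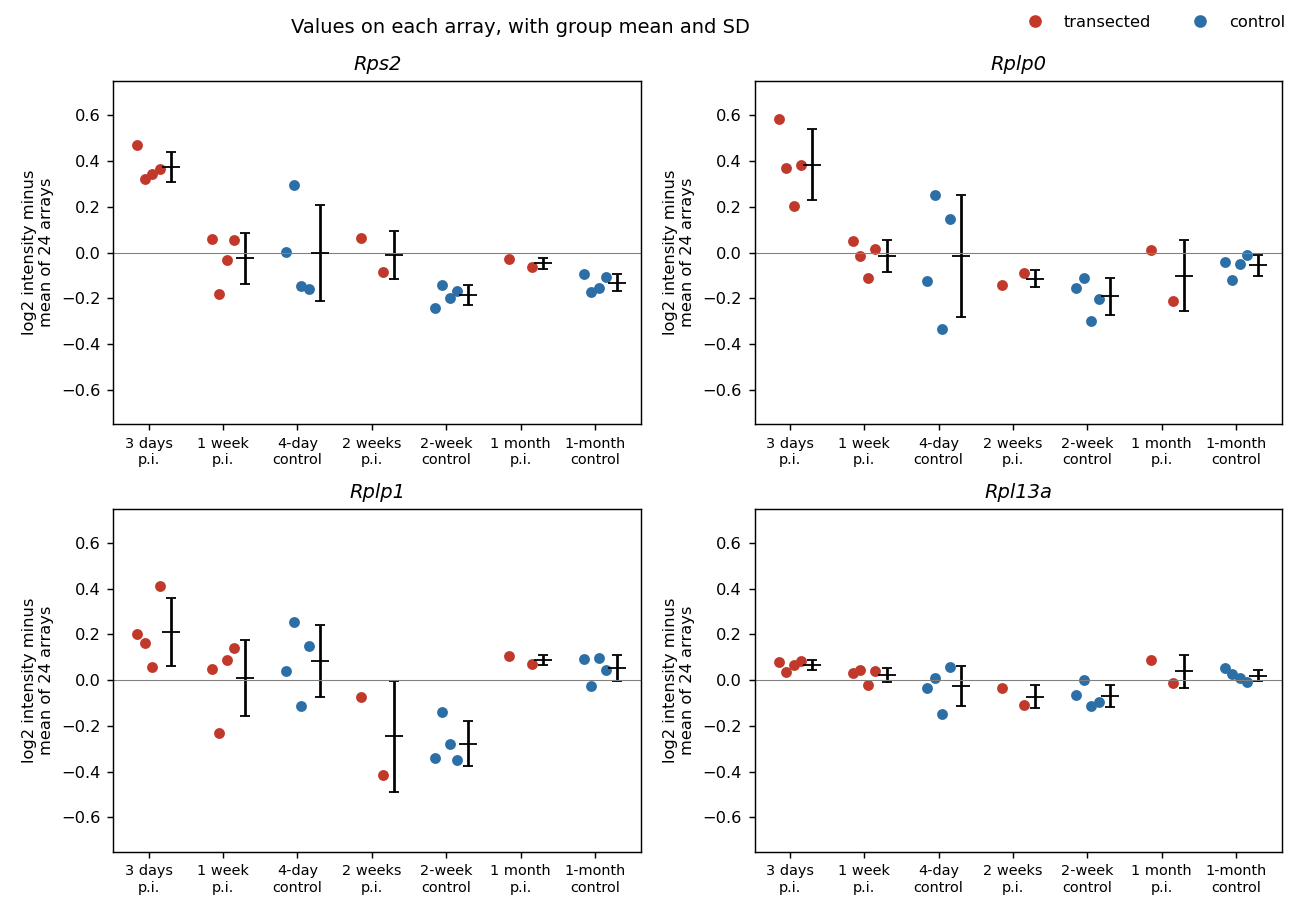
Log2 intensity minus the gene's mean over the 24 arrays (y axis) for Rps2, Rplp0, Rplp1 and Rpl13a in the 7 groups (x axis), 1 point an array, with the mean and SD of each group in black beside the points. Rps2 and Rplp0 are highest at 3 days p.i., Rplp1 is lowest in both 2-week groups, and Rpl13a keeps within a narrow band.

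From 1 week p.i. on, no ribosomal protein gene was called, and neither was any other probe (0% of tested probes at 1 week, at 2 weeks and at 1 month). At 1 week p.i. 38 of 74 genes were higher and 36 lower, with a median difference of 0.00087. The smallest p belonged to Rpl24 (0.11 ± 0.066) and Rps6 (0.10 ± 0.062) among those higher, and to Rpl15 (-0.16 ± 0.14) and Rpl28 (-0.07 ± 0.063) among those lower. At 2 weeks p.i. 41 were higher and 33 lower (median 0.0052), led by Rps18 (0.16 ± 0.088) and Rps2 among those higher and by Rps29 (-0.13 ± 0.081) and Rpl10a (-0.14 ± 0.088) among those lower. At 1 month p.i. 59 were higher and 15 lower (median 0.03), where 45.8% of tested probes were higher and their median was -0.01. Without replicate 1 of 1 month p.i. 42 were higher (median 0.0081), without replicate 2 of that group 65 (median 0.06) and without 1-month control 2 there were 48 (median 0.02). Rps15 had the smallest p there (0.23 ± 0.092, unadjusted p = 0.02, adjusted p = 1), followed by Rpl7a (0.12 ± 0.073), and among those lower by Rps9 (-0.06 ± 0.076) and Rpl30 (-0.06 ± 0.086). The late groups hold 2 arrays each, and the median half-width of their confidence intervals was 0.17.

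Averaged over the 4 times p.i., each against the controls named above, 57 genes were higher and 17 lower, with a median of 0.02. None of the 74 was called, where 0.404% of tested probes were. At an unadjusted p under 0.05 stood 3 genes (4.05%), all of the small subunit, and 8.87% of all tested probes. Rps2 averaged 0.15 ± 0.051 (adjusted p = 0.296), Rps18 0.13 ± 0.044 (adjusted p = 0.312) and Rpsa 0.21 ± 0.087 (adjusted p = 0.463).

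The ribosomal protein genes also shifted from array to array within a group. On the 4 arrays of 3 days p.i., 63, 45, 45 and 65 of the 74 genes lay above their own mean over all 24 arrays. In 4-day controls the numbers were 10, 51, 21 and 61, so that controls 2 and 4 resembled the transected arrays and controls 1 and 3 did not. Of all 24 arrays, limma's array quality weight was lowest for 4-day control 3 (0.328) and next lowest for 4-day control 4 (0.477). The mean deviation of the 74 genes was 0.066 ± 0.051 at 3 days p.i. (SD, n = 4) and -0.0047 ± 0.076 in 4-day controls (n = 4). It was -0.00093 ± 0.023 at 1 week p.i. (n = 4), -0.017 ± 0.039 at 2 weeks p.i. (n = 2), against -0.019 ± 0.036 in 2-week controls (n = 4), and 0.0025 ± 0.042 at 1 month p.i. (n = 2), against -0.034 ± 0.036 in 1-month controls (n = 4). The means of all 7 groups lay within the range of the single 4-day controls, -0.072 to 0.073.

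**Figure D3:**
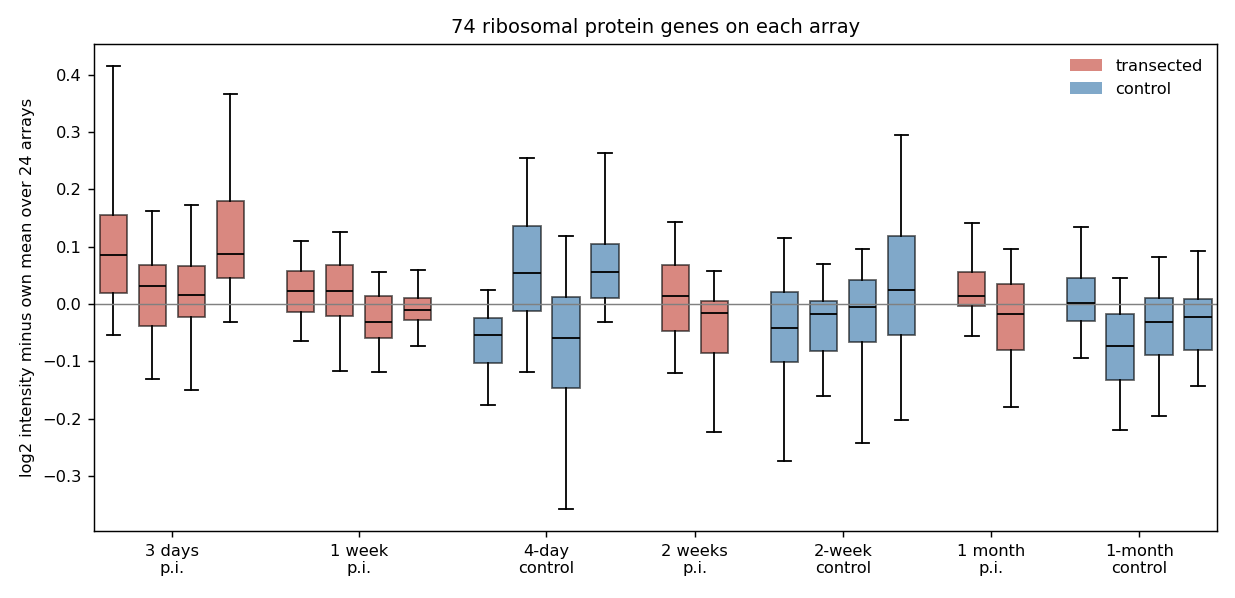
Log2 intensity of the 74 genes minus each gene's mean over 24 arrays (y axis), 1 box an array, in the 7 groups (x axis), with the median, the quartiles and whiskers to the 5th and 95th percentiles. Transected arrays are red and controls blue, and the 4-day controls split into 2 low and 2 high boxes.

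Over all 7 groups at once, limma's F test called 5 of the 74 genes (6.76%), where it called 10.9% of all tested probes. They were Rps2 (adjusted p = 0.00339), Rplp0 (adjusted p = 0.015), Rpl7a (adjusted p = 0.0192), Rplp1 (adjusted p = 0.0228) and Rps18 (adjusted p = 0.0496). Rps18 had its highest mean at 3 days p.i., 2368, against 2055 in 4-day controls, and its lowest in 1-month controls, 1891. Rpl7a, a large-subunit protein, had its highest mean at 3 days p.i. too, 1016, against 964 in 4-day controls, and its lowest in 1-month controls, 814. Rplp1 likewise had its highest at 3 days p.i., 2515, against 2305 in 4-day controls, and its lowest in 2-week controls, 1791. Both also varied among the control groups. Rpl7a had 828, 810.0, 818 and 802 in 1-month controls, 931, 877, 974 and 919.8 in 2-week controls and 909.8, 1038, 998 and 909.7 in 4-day controls. Rplp1 had 2313, 2128, 2318 and 2234 in 1-month controls, against 1709, 1968, 1784 and 1703 in 2-week controls, and the groups did not overlap. All 1-month controls lay above all 2-week controls for 4 of the 74 genes and for 2458 of the 23240 tested probes.

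The difference of Rplp1 between 1-month and 2-week controls, 0.33 ± 0.099, passed the test (adjusted p = 0.0395), and no other ribosomal protein gene did. Between these uninjured groups the test called 10.2% of all tested probes, and 6.18% as higher at 1 month. Of the astrocyte markers 9 of 9 were higher and 5 called (median 0.34), with sums of 13745 to 15129 in 1-month controls against 9936 to 13967 in 2-week controls. Of the oligodendrocyte markers 8 of 9 were higher and 3 called (median 0.31), with sums of 12120.2 to 13016 against 10091 to 11239. Of the neuronal markers 13 of 16 were higher and 3 called (median 0.07), with sums of 31569 to 32508 against 29481 to 31070.2. Of the microglial markers 3 of 13 were higher and none was called. The part of these markers' cells in the difference of Rplp1 was not tested. The adjusted p of Rplp1 was 0.0539 with the replicate number as a block, 0.1116 after quantile normalization again and 0.1185 after cyclic loess. Leaving out single arrays took it between 0.0257 and 0.092. The call was lost without 2-week control 1, 3 or 4, or without any 1 of the 1-month controls. Between 2-week and 4-day controls no ribosomal protein gene and 0% of tested probes were called, and the smallest p was again that of Rplp1 (-0.36 ± 0.099, adjusted p = 0.133). Between 1-month and 4-day controls none was called either, where 0.0043% of tested probes were. Rplp1 was as low at 2 weeks p.i., with 2057 and 1624, as in the 2-week controls, and its difference there was 0.03 ± 0.12.

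As a set the genes were steady. The SD of log2 intensity over all 24 arrays had a median of 0.0852 over the 74 genes and of 0.192 over all tested probes, and 64 of the 74 (86.5%) lay under the latter value. Bright probes vary less on these arrays. Among probes with a mean log2 of 11 or more the median SD was 0.0896 over 594 probes and 0.0677 over the 50 ribosomal protein genes of that level. In steps of 0.5 log2 of mean intensity, 53 of the 74 genes (71.6%) lay under the median SD of the probes of their own step and 1, Rpsa, lay above its 90th percentile. In both cases the probes compared with include those of the ribosomal protein genes, 260 of all tested probes. The genes were thus set partly against themselves. The steadiest were Rpl37a (SD 0.0422), Rps26 (SD 0.0447) and Rps23 (SD 0.0448). Rpl37a had 4636, 4261, 4137 and 4494 at 3 days p.i. and 4269.6, 4585, 4280.3 and 4571 in 4-day controls, a difference of -0.02 ± 0.054. The most variable were Rpl22l1 (SD 0.279), Rpsa (SD 0.249) and Rps4y2 (SD 0.234). The lowest values of Rpsa were 954 in 4-day control 3 and 968 in 2-week control 1, and the other 4-day controls had 1400.1 to 1891.

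**Figure D4:**
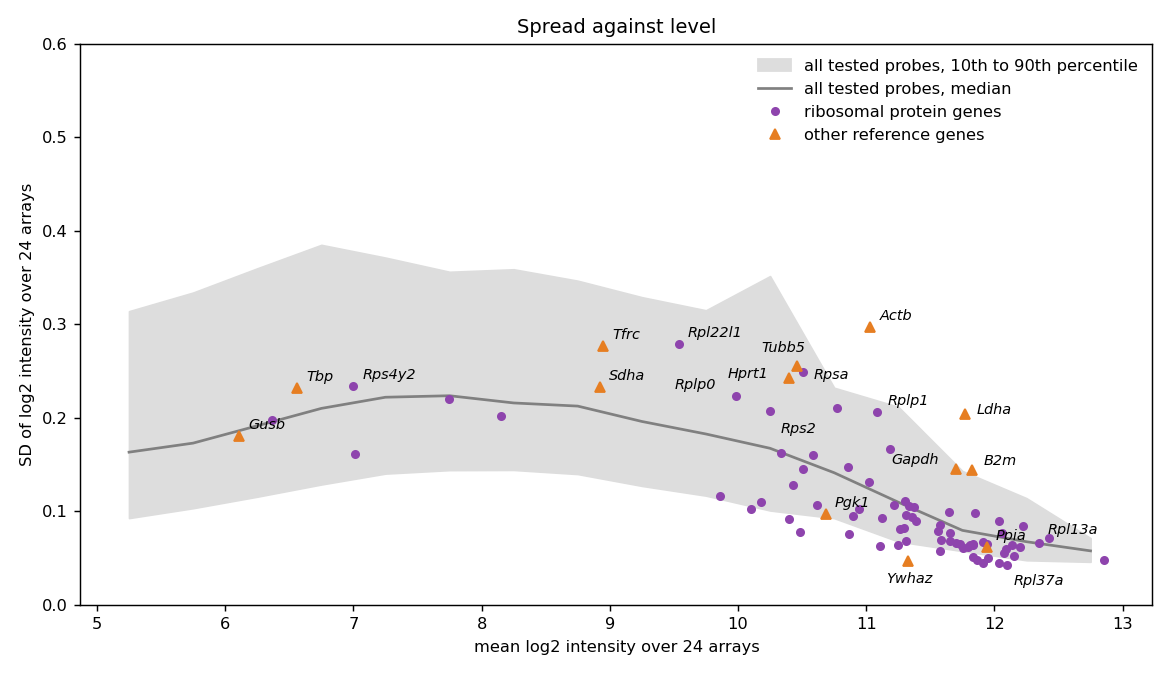
SD of log2 intensity over the 24 arrays (y axis) against the mean log2 intensity (x axis) for the 74 ribosomal protein genes (purple) and 13 other common reference genes (orange), over the median (line) and the 10th to 90th percentiles (grey) of all tested probes in steps of 0.5. Most ribosomal protein genes lie under the line, while Rplp1, Rplp0, Rps2 and Rpsa stand above it, as do Ldha and Actb.

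The PCR of the study was normalized to Rplp1, Rpl13a and Ldha (lactate dehydrogenase A), which its authors called unchanged on the arrays. In the values used here these 3 differed in their spread. Rpl13a, a large-subunit protein that in human monocytes also takes part in silencing of certain mRNAs, had 5505, 5336, 5444 and 5515 at 3 days p.i., against 5087, 5245, 4703 and 5423 in 4-day controls. The difference was 0.09 ± 0.056 (95% confidence interval -0.02 to 0.21), and at the later times, in order, it was 0.05, -0.003 and 0.02. Its SD over 24 arrays, 0.0661, was undercut by 1.43% of tested probes. The SD of Rplp1 was 0.206 and 56.7% of tested probes had a smaller one, and for Ldha these were 0.204 and 55.7%. These shares are over probes of all levels. In the 0.5 log2 step of its own mean intensity, the median SD was 0.0675 for Rpl13a, 0.11 for Rplp1 and 0.0796 for Ldha. The 90th percentiles of these steps were, in the same order, 0.114, 0.212 and 0.143. For its level Rpl13a was thus near the median, and Ldha lay above the 90th percentile. Rplp1 differed by -0.07 ± 0.099 at 1 week and 0.04 ± 0.12 at 1 month p.i., and none of its lesion differences passed the test. Ldha rose at 3 days p.i. by 0.46 ± 0.11 (adjusted p = 0.0231), and its arrays there lay above all 4-day controls. Without replicate 1 or 4 of 3 days p.i., or 4-day control 1 or 2, its adjusted p was 0.0502 to 0.0846. Fitted on the arrays of 3 days p.i. and the 4-day controls alone, limma gave Ldha an adjusted p of 0.124. On average over the 4 times p.i. Ldha differed by 0.22 ± 0.067 (adjusted p = 0.199) and was not called. Limma's F test over the 7 groups gave it an adjusted p of 0.0728. The genome-wide test of the study asked for a main effect of treatment over its 4 times, not for a change at 3 days. Since 2 genes that hold steady keep their ratio, the log2 ratio of Rplp1 to Rpl13a was followed from array to array. It had an SD of 0.164 and ran from -0.31 to 0.33 about its mean, with its highest value on replicate 4 of 3 days p.i. and its lowest on replicate 4 of 2 weeks p.i. Of other common reference genes, Ywhaz had an SD of 0.0469, Ppia 0.0613, Rplp2 0.0809, Pgk1 0.0972 and Actb, which rose at 3 days p.i. by 0.60 ± 0.11 (adjusted p = 0.00332), 0.297. The SD was 0.144 for B2m and 0.145 for Gapdh, and between 0.18 and 0.277 for Gusb, Tbp, Sdha, Hprt1, Tubb5 and Tfrc.

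A reference was subtracted from each array, on values that RMA had already normalized. This moved the differences of the study's PCR targets at 3 days p.i. by the reference's own difference. Hspb1 (heat shock protein 27) rose under each of the 5 references, by 2.04 with Ldha to 2.43 with the mean of the 74 ribosomal protein genes, and by 2.499 without a reference. Stat3 likewise rose under each, by 0.43 to 0.83, and by 0.89 without a reference, and Fgf9 fell under each, by 0.60 to 0.99, and by 0.53 without. Gfra1, a receptor subunit for GDNF, rose by 0.53 without a reference (adjusted p = 0.0442), and passed the test with none of the 5 references. Its difference was 0.41 with Rplp1 (adjusted p = 0.298), 0.44 with Rpl13a (adjusted p = 0.0677) and 0.07 with Ldha (adjusted p = 0.725). Actb passed with Rplp1 (0.47, adjusted p = 0.0285) and Rpl13a (0.51, adjusted p = 0.00574) and not with Ldha (0.14, adjusted p = 0.454). The paper reports Gfra1 and Actb as significant at this time in its PCR as well as on its arrays. Values of that PCR were not analysed here, so these subtractions do not test its result. Bex3, Gfra2 and Npy passed as lower only with Ldha or the mean of Rplp1, Rpl13a and Ldha. Their differences were -0.05, -0.23 and -0.49 without a reference and -0.51, -0.69 and -0.96 with Ldha. Lifr was called under none, and its difference was 0.36 without a reference, 0.23 with Rplp1, 0.26 with Rpl13a and -0.10 with Ldha.

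**Figure D5:**
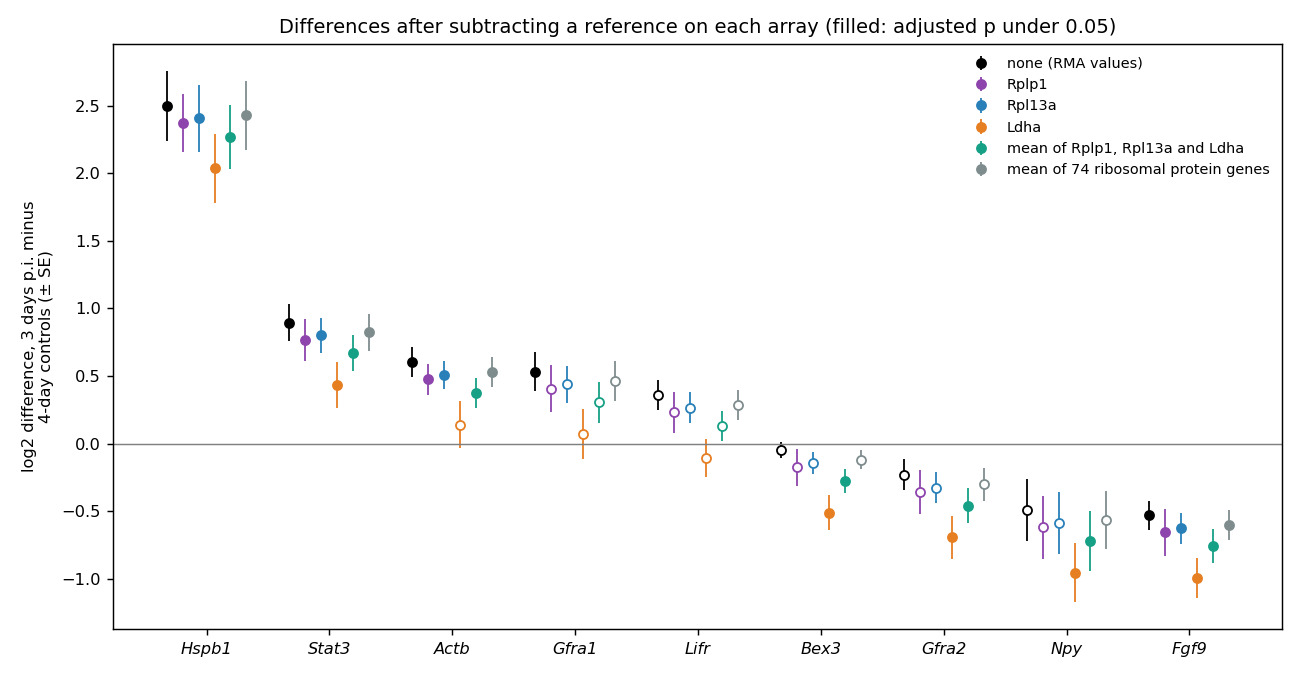
Log2 difference between 3 days p.i. and the 4-day controls, with its SE (y axis), for the 9 targets of the study's PCR that had a probe (x axis), without a reference and after subtracting each of 5 references on every array. Filled points have an adjusted p under 0.05, and the orange points, with Ldha subtracted, are the lowest for every gene.

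Across all tested probes the same choice changed the balance of calls at 3 days p.i. Without a reference 465 probes were called higher and 206 lower, with a median difference of -0.01. With Rpl13a subtracted these were 358 and 689 (median -0.10), with Rplp1 216 and 129 (median -0.13), and with the mean of the 74 genes 383 and 509 (median -0.08). With Ldha 171 were called higher and 17177 lower (median -0.47), and with the mean of Rplp1, Rpl13a and Ldha 326 and 5629 (median -0.24). The reference's own deviation on an array enters every probe of that array alike, so these counts are not independent over probes. At the 3 later times no probe was called under any of the references.

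Other genes of translation were set beside the ribosomal proteins at 3 days p.i., each group against the 4-day controls. Of all tested probes 47.6% were higher in that comparison and 2.89% were called, so a single call in a list of this size is near that share. Fau, which encodes a small-subunit protein fused to a ubiquitin-like one, differed by 0.01 ± 0.049, and Rack1, a scaffold on the small subunit, by 0.29 ± 0.13 (adjusted p = 0.288). Of 9 elongation factors 6 were higher and 3 lower (median 0.09) and none was called, nor was any of 32 initiation factors, of which 17 were higher and 15 lower (median 0.04). Genes of ribosome assembly in the nucleolus ran the other way, with 13 higher and 34 lower of 47 (median -0.06). Of these Nolc1, a nucleolar chaperone of small nucleolar RNPs, fell by 0.29 ± 0.070 (adjusted p = 0.0256), and Npm1 and Ncl differed by -0.01 ± 0.082 and -0.06 ± 0.057. Of 9 genes of RNA polymerase I and its factors 2 were higher and 7 lower (median -0.04), and of 14 genes of the mTOR pathway 5 were higher and 9 lower (median -0.03), with none called in either group. The proteins of the mitochondrial ribosome, a separate set of nuclear genes, were mostly lower, 61 of 67, with 6 higher and a median of -0.13. Mrps15 fell by 0.51 ± 0.13 (adjusted p = 0.0284), Mrpl41 rose by 0.28 ± 0.071 (adjusted p = 0.0309), and the others were not called. At 1 week p.i. 12 mitochondrial ribosomal protein genes were higher and 55 lower (median -0.08), at 2 weeks p.i. 14 and 53 (median -0.11), and at 1 month p.i. 39 and 28 (median 0.04), with none called. The difference between the mitochondrial and the cytosolic genes was not tested.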

How the data were processed

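RNA of laser-dissected TPS neurons, amplified from each animal, was hybridized to 24 Affymetrix Rat Gene 1.0 ST arrays. The authors normalized the arrays with RMA, and the deposited values are intensity on a linear scale, of which log2 was taken. The raw scans were not used, so no probe has a background of its own and a detection limit could not be set. Of the 27342 probes, the platform annotation left 11922 without a gene symbol and gave 15097 a single one, and the 323 with more than 1 were used only in the fit. Ribosomal protein genes have many processed pseudogenes, and a probe can also read a near-identical copy. The members held 261 probes, 1 to 21 a gene. Probes in the lowest 15 percent by mean log2 (5.05 or less) were left out, which left 23240, and 260 of the 261.

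In R 4.3.3, limma 3.58.1 estimated the means of the 7 groups over all arrays (17 residual and 3.64 prior degrees of freedom), with Benjamini-Hochberg adjustment within each comparison. The script was tested on simulated data. The members and lists were chosen with earlier results of these data known. Genes were named by rule: the stalk proteins and Rpsa, Rpl13a, Rpl4, Rps6, Rpl5 and Rpl11, measured paralogs, members past the threshold or with the smallest p in each direction, the 3 smallest and 3 largest SD, and up to 3 called genes of each other list. Rpl22 and the genes listed as not overlapping were named after their values were seen. Alternatives changed the filter, moderation, weights, normalization, controls, probes, the replicate block and single arrays, and used the methods' t-test. The number of arrays limits the precision. Figures were drawn with matplotlib.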

Additional observations from a re-analysis of the deposited data

Results flagged for a closer look

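The differences of Rps2 and Rplp0 at 3 days and 1 week p.i., taken against the same 4-day controls, were not alike: 3 days exceeded 1 week by 0.40 (adjusted p = 0.0132) for Rps2 and by 0.40 (adjusted p = 0.0398) for Rplp0 in limma's fit. The shared controls cancel, so this is the comparison of 3 days with 1 week given above and no further result. Rplp0 was not called in 14 of the 24 fits without a single array. With the compared groups alone limma called neither gene (adjusted p = 0.057 for Rps2 and 0.0942 for Rplp0). The 3-day difference of Rps2 exceeded that at 2 weeks p.i. by 0.20 (adjusted p = 0.836) and that at 1 month p.i. by 0.29 (adjusted p = 0.645), and for Rplp0 these were 0.32 (adjusted p = 0.745) and 0.44 (adjusted p = 0.505).

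Replicate 5 of 1 week p.i. stood apart from the other 3 for Rplp2, with a log2 intensity of 11.31 where the nearest of the others had 11.26. All 4 lay within 0.05 log2. Such a gap is met by chance in about 1 of 20 groups, and of the 8 measures examined in the 5 groups of 4 arrays it was met once.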

How the results depend on the processing

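The median difference of the ribosomal protein genes kept within 1 SD of its value under every alternative. This held at all 4 times p.i. and for 3 days against 1 week, with an SD of 0.0472 between arrays of a group. Only for 3 days p.i. against 4-day controls (0.0621) was the median itself larger than this limit. It was 0.0458 for 3 days against 1 week and, at the later times in order, 0.00087, 0.0052 and 0.0334. A complete loss of those smaller shifts would have stayed within the limit, so the limit cannot show whether they were stable. Leaving out single arrays gave medians of 0.04 to 0.09 at 3 days, -0.02 to 0.03 at 1 week, -0.02 to 0.03 at 2 weeks, 0.0081 to 0.06 at 1 month p.i. and 0.04 to 0.06 for 3 days against 1 week. Other alternatives gave 0.04 to 0.07 at 3 days, 0.02 to 0.04 at 1 month p.i. and, for 3 days against 1 week, 0.0116 after quantile normalization again to 0.06. Between 1-month and 2-week controls it was -0.03 (-0.05 to -0.02 without single arrays) and 0.0635 with arrays centred on their medians. No alternative called a member at 1 week, 2 weeks or 1 month p.i.

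Counts of called members were less stable. For 3 days p.i. against 4-day controls, with 2 called, the count was 4 with trend and robust moderation, 1 after quantile normalization again or with arrays centred on their medians, 0 with the compared groups alone, 7 with the 12 controls pooled, 0 by the methods' t-test, and 0 to 3 without single arrays. For 3 days against 1 week, with 2 called, it was 4, 1, 1, 0, 1 and 0 under the same alternatives in the same order, and 1 to 3 without single arrays. Between 1-month and 2-week controls, with 1 called, it was 2 with no filter, 2 with the probes above the median, 3 with trend and robust moderation, 8 with array quality weights, 2 after quantile normalization again, 2 after cyclic loess, 4 by the methods' t-test and 0 to 4 without single arrays. Rplp1 was not among the members called after quantile normalization again or after cyclic loess. The cause of these changes in the counts was not tested.

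By the methods' t-test 7 members (9.46%) had an unadjusted p under 0.05 at 3 days p.i., as did 8.61% of all tested probes, and 0 probes passed after adjustment. By limma 9 members had one. With the replicate number as a block no member was called between 1-month and 2-week controls, and no other count of called members changed by over 1.5 times. The numbers did not pair the arrays: deviations of same-numbered arrays from their group means correlated at 0.0215 on average over 55 pairs and as low as -0.186, against -0.00631 over 189 other pairs.

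Differences near 0 changed sign without being called. Rpl13a at 2 weeks p.i. was 0.00418 with array quality weights, 0.0331 after quantile normalization again, 0.0338 after cyclic loess and 0.0154 with the replicate block, and -0.0389 to 0.0327 without single arrays. At 1 month p.i. it was -0.000319 with the replicate block and -0.0322 to 0.0685 without single arrays. Rplp1 with the 12 controls pooled was 0.0585 at 1 week and -0.20 at 2 weeks p.i., and without single arrays it was -0.14 to 0.0090 at 1 week and -0.14 to 0.20 at 2 weeks p.i. With Ldha subtracted, the difference of Lifr at 3 days p.i. was -0.10.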
